A study of Mus musculus with 2 samples.

Results

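The genes described here were those of the unfolded protein response and of the chaperones of the endoplasmic reticulum (ER), 34 genes chosen by name and read in RAW264.7 cells treated with vehicle or with IR-61. The array named 20655 genes in all, and each of the 34 had at least 1 probe well above background on both arrays, so no gene of the list was lost to a filter. RAW264.7 is an established macrophage line of BALB/c mice, made from the ascites of an adult male with a tumour induced by Abelson murine leukemia virus. IR-61 is a heptamethine cyanine dye that fluoresces in the near infrared and gathers in mitochondria, and its dose of 10 μM is the one stated in the study's text, since the labels give none. One culture received the vehicle and 1 received IR-61, both for 24 h in the same medium with fetal bovine serum, and the RNA of each was hybridized to 1 single-colour Agilent array. With 1 array per condition no test was possible, no p-value is given, and no value below has a spread between cultures.

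Proteins that enter the secretory pathway fold in the ER with the help of lumenal chaperones, lectins and disulfide isomerases, and those that fail are exported to the cytosol and degraded. When unfolded proteins build up, 3 sensors in the ER membrane, IRE1α, PERK and ATF6, start the unfolded protein response. IRE1α splices the *Xbp1* mRNA, ATF6 is cut to release a transcription factor, and PERK phosphorylates a translation initiation factor. XBP1 and ATF6 then act on promoters of chaperone and degradation genes, and macrophages, which secrete large amounts of cytokines, rely on this machinery.

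The DNA element best known for this control is the ER stress response element, ERSE, which is CCAAT and CCACG with any 9 bases between them. A shorter element, ERSE-II, is ATTGG and CCACG with any 1 base between them, and the UPR element that XBP1 binds was searched as TGACGTGG. All 3 were searched on both strands in RefSeq promoter windows of the mouse assembly GRCm38.p6, each with 250 bases before and 50 after the start of the gene. ERSE and ERSE-II both end in CCACG. The windows held 29 of the 34 genes, and *Hyou1*, *Manf*, *Atf6*, *Derl1* and *Sec61a1* had no entry. An exact ERSE was present in 10 of the 29 (34.5%), against 39 of all 32851 promoters (0.119%) and 0 of the 58 other ER genes with an entry. The list was drawn up from known genes of this response, so this count describes how the list was made. The 11 sites of the 10 genes are shown to compare what the signals below can be set against, each read along the strand named, with the CCAAT and CCACG ends in capitals:
Calr, chr8:84847075-84847093, plus strand: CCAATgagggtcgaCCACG
Canx, chr11:50325800-50325818, minus strand: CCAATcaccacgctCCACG
Creld2, chr15:88819520-88819538, minus strand: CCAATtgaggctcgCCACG
Derl3, chr10:75893242-75893260, minus strand: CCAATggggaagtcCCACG
Dnajc3, chr14:118937827-118937845, plus strand: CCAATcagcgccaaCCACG
Ero1lb, chr13:12565682-12565700, minus strand: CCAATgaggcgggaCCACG
Hsp90b1, chr10:86705638-86705656, minus strand: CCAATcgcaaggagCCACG
Hsp90b1, chr10:86705533-86705551, plus strand: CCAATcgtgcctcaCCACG
Hspa5, chr2:34772025-34772043, plus strand: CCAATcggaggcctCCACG
Pdia6, chr12:17266491-17266509, plus strand: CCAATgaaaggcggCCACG
Syvn1, chr19:6046532-6046550, plus strand: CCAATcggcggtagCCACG
The spacer of 9 bases between the ends differed at every site. Counted from the start of the gene as base 1, with the base before it as −1, the 11 sites began between −212 and −44. *Hsp90b1* was the only gene of the list with a pair of them, in opposite orientation.

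ERSE-II was found in 12 of all promoters (0.0365%), among them those of *Dnajb11* and *Herpud1*, shown here with the fixed letters in capitals because *Herpud1* was 1 of the 4 genes with the widest differences:
Dnajb11, chr16:22857852-22857862, plus strand: ATTGGcCCACG
Herpud1, chr8:94386377-94386387, plus strand: ATTGGgCCACG
TGACGTGG was in 222 promoters (0.676%), in those of 5 of the 58 other ER genes and in none of the 29. A match is only a run of letters, and the array did not measure binding.

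The whole window of *Hspa5*, chr2:34771840-34772139 on the plus strand, is given because this gene is the standard readout of the response. Near matches to ERSE were not searched and are not marked. The exact ERSE of the gene is in capitals and lies at −65 to −47, upstream of a TATA box:
Hspa5: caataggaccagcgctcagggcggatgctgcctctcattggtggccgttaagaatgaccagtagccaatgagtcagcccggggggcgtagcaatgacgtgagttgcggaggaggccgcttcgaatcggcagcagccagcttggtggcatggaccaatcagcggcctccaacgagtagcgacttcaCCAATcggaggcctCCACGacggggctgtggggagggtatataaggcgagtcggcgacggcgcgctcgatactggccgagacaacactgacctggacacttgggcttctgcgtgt
The window of *Herpud1*, chr8:94386179-94386478 on the plus strand, has its ERSE-II in capitals at −52 to −42:
Herpud1: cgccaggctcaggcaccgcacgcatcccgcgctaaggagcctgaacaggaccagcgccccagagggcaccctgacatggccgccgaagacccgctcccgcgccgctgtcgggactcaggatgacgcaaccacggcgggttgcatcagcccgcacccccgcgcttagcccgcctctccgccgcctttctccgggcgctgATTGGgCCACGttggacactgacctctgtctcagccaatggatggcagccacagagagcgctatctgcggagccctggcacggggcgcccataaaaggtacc

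**Figure D1:**
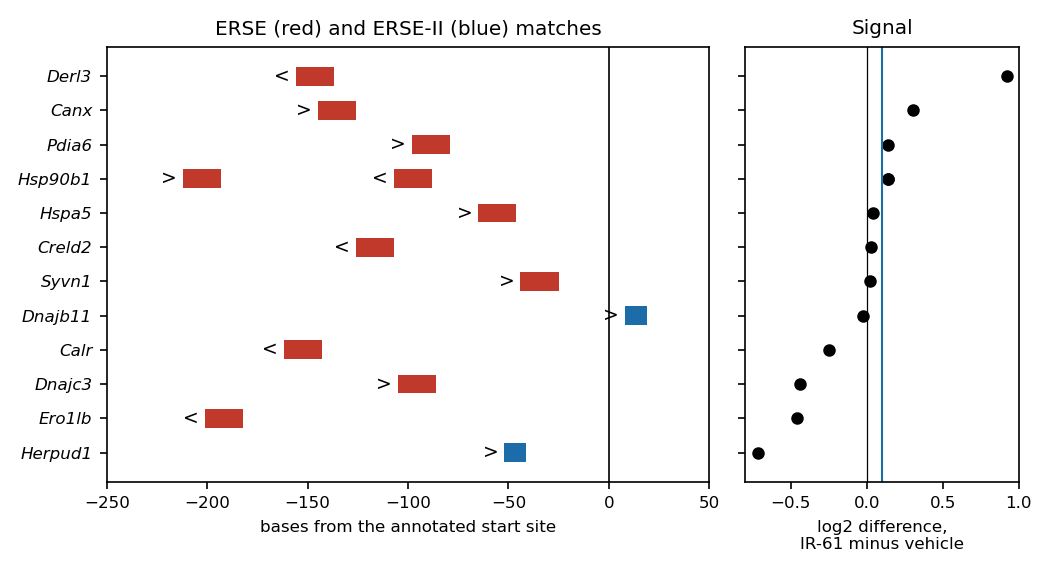
Left, positions of the exact ERSE (red) and ERSE-II (blue) matches in bases from the annotated start, 1 row per gene, with > for a site along the gene and < for one against it; right, the log2 difference of the same gene (IR-61 minus vehicle, vertical line at the median of all genes). The ERSE sites lie between −212 and −26, the ERSE-II of *Dnajb11* lies at 8 to 18, and the rows, sorted by difference, run from *Derl3* at 0.92 to *Herpud1* at −0.72.

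The signal of a gene below is its background-subtracted intensity as deposited, in arbitrary units and before any scaling. The difference is on the log2 scale, IR-61 minus vehicle, after the 75th percentile of each array was subtracted. The IR-61 array was the brighter one, its percentile of 10.79 lying 0.49 above the 10.30 of the vehicle array in log2 units, so that a gene of equal signal on both comes out lower by that amount. Over the 16888 genes measured on both arrays the median difference was 0.10 with an SD of 0.44. The share of probes well above background was 77.6% with vehicle and 81.2% with IR-61. Of 8 macrophage markers 7 had a named probe, each clearly above background on both arrays, with differences from −0.83 (*Spi1*) to 1.03 (*Adgre1*) and signals that summed to 202601 (vehicle) and 373735 (IR-61). Of 6 markers of other cell types *Epcam* was not well above background on either array, the other 5 were on both, at −0.09 to 0.62, and the summed signals were 28582 and 60818, mostly *Col1a1*. The part of these markers in the values below was not tested.

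The 34 genes stayed close to the bulk of the array. Their median difference was −0.06, which is 0.16 under the median of all genes (0.02 under it with normexp background correction), and they ranged from −1.09 for *Edem2* to 0.92 for *Derl3*. Of the 34, 19 lay below 0 and 15 above, where 38.8% of all genes lay below 0, and 24 (70.6%) lay below the median of all genes. Before scaling all but *Edem2* and *Herpud1* read higher on the IR-61 array, so for every other gene a place below 0 rests on the scaling. Within 0.25 of 0 were 17 of the 34 (50%), against 48.7% of all genes. On the lower side 2 genes, *Edem2* and *Herpud1*, passed 1.5-fold, as did 5.68% of all measured genes. On the higher side 2 genes, *Derl3* and *Eif2ak3*, passed it, against 9.79% of all. At 2-fold or more, 1 gene was lower, against 1.39% of all, and 0 were higher, against 1.99%. Among the 7505 genes with a mean log2 signal of 10 or more, the range that holds most of the list, these 4 shares were 4.72%, 8.26%, 1.09% and 1.03%. The share of the list past 1.5-fold was thus near that of all genes on the lower side and under it on the higher side. With 1 array per condition the error used here is that of the scanner software. It puts 1 SD of the difference at 0.204 for a gene read by 1 bright spot per array. By this measure 20 of the 34 differed from 0 by more than 1 SD, a share near the 57.1% of all measured genes, and the measure leaves out all variation between cultures and arrays. The SD taken from the spread between spots was smaller for a gene of 1 bright spot per array, at 0.095. A difference within 1 software SD can exceed it, as the 0.14 of *Hsp90b1* does. For *Edem2*, of lower signal, it was 0.231.

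**Figure D2:**
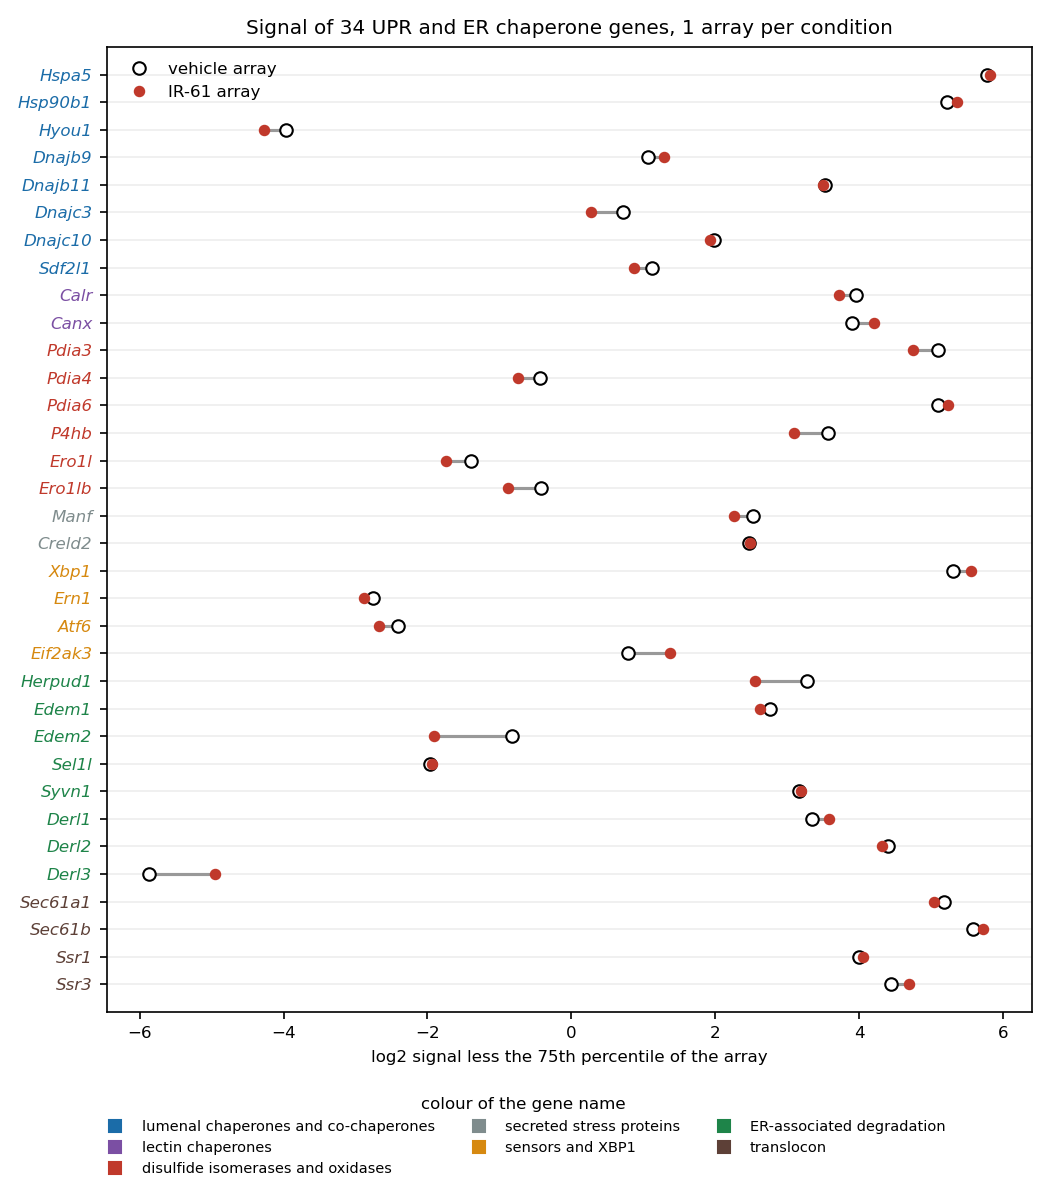
Scaled log2 signal (log2 intensity less the 75th percentile of the array) of the 34 genes on each array (vehicle open, IR-61 filled), with gene names coloured by role. Levels of different probes cannot be compared, only the ends of each line. For 17 of the 34 genes both ends lie within 0.25 of each other, and the longest lines are at *Edem2*, *Derl3*, *Herpud1* and *Eif2ak3*.

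The lumenal chaperones and their co-chaperones, 8 genes, had a median difference of −0.04, and none of them passed 1.5-fold. *Hspa5*, which encodes BiP, the main Hsp70 of the ER and the protein that keeps the sensors inactive, read 69324 with vehicle and 99854 with IR-61. That is a difference of 0.04 after scaling, well within 1 SD of the software error. *Hsp90b1*, the Hsp90 of the ER also called GRP94, read 47047 and 72701, a difference of 0.14. Both genes hold an exact ERSE, and both lay above 0 by less than the software SD, as 61.2% of all genes lay above 0. Relative to the median of all genes *Hspa5* was at −0.06 and *Hsp90b1* at 0.04. The side of 0 of *Hspa5* depends on the scaling, at −0.04 with scaling by the median. *Hyou1*, the large Hsp70 that exchanges nucleotide on BiP, had low signals of 80.5 and 92.1 and a difference of −0.29.

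The DnaJ proteins hand clients to BiP or tune its cycle, and their 4 genes lay on either side of 0. *Dnajb9*, which brings BiP to IRE1α, read 2636 with vehicle and 4321 with IR-61, a difference of 0.22. *Dnajc3*, the co-chaperone known as p58IPK, read 2075 and 2147, and at −0.44 it was the lowest of the 8. *Dnajb11* and *Dnajc10*, the latter also a disulfide reductase, had differences of −0.03 and −0.05. *Sdf2l1*, a partner of *Dnajb11*, read 2752 and 3232, a difference of −0.26. After scaling the co-chaperones thus lay on both sides of 0, with none beyond 1.36-fold, while before it all 5 read higher with IR-61.

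The lectin chaperones calreticulin and calnexin bind the same glycans of new glycoproteins, the one soluble in the lumen and the other in the membrane. *Calr* read 19626 with vehicle and 23223 with IR-61, a difference of −0.25, and *Canx* read 18895 and 32666, a difference of 0.30. After scaling the pair lay on opposite sides of 0, *Canx* by 1.48 times the software SD and *Calr* by less, and unscaled both were higher with IR-61, by 0.24 for *Calr* and 0.79 for *Canx*. Both promoters hold an ERSE.

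The disulfide isomerases and oxidases were the role group with the lowest median, −0.35, which is 0.45 under the median of all genes. Of the 6 genes 5 were lower with IR-61, where 38.8% of all genes lay below 0. All 5 differed from 0 by more than 1 SD of the software error, as did 57.1% of all genes in either direction. None of the 6 reached 1.5-fold. *P4hb*, the gene of protein disulfide isomerase itself, read 15026 with vehicle and 15125 with IR-61, so its difference of −0.48 is a signal that was level while the array as a whole was brighter. *Pdia3*, the isomerase that works with the lectin chaperones, read 43217 and 47427, a difference of −0.35. *Pdia4*, another isomerase of the lumen, read 931 and 1057, a difference of −0.30. The oxidases that recharge the isomerases gave similar values. *Ero1l*, encoding ERO1α, read 479 and 531, a difference of −0.34, and *Ero1lb*, encoding ERO1β, read 940 and 958, a difference of −0.46. *Pdia6* was the exception in direction by its brightest probe, with 43134 and 66768 and a difference of 0.14, within 1 SD of the software error. Its second probe gave −0.26, so its side of 0 depends on the probe. The unscaled signals of all 6 genes were higher on the IR-61 array, by 0.01 to 0.63 on the log2 scale, so their side of 0 rests on the scaling, while the distance of their median from that of all genes stayed between −0.45 and −0.37 under all settings tried.

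**Figure D3:**
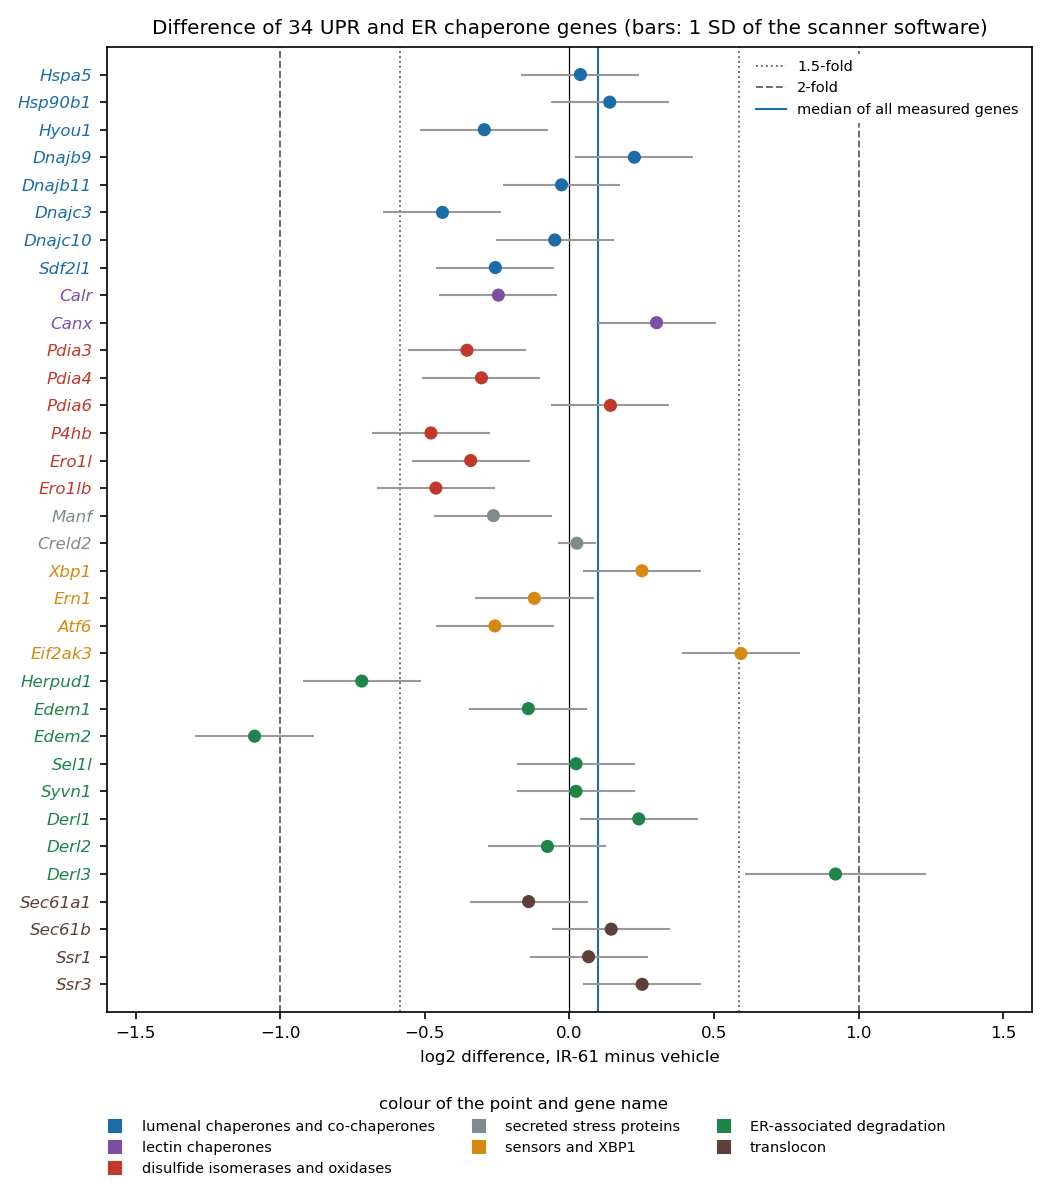
Log2 difference (IR-61 minus vehicle, after scaling) of the 34 genes, with points coloured by role, bars of 1 SD of the scanner software's error, dotted and dashed lines at 1.5-fold and 2-fold and a solid line at the median of all measured genes. *Edem2* is the only point beyond 2-fold, and 5 of the 6 disulfide isomerases and oxidases lie to the left of 0, as do 38.8% of all genes.

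Of the 2 small secreted stress proteins, *Manf*, a BiP-binding protein that cells release under ER stress, read 7283 with vehicle and 8516 with IR-61, a difference of −0.26. *Creld2*, another secreted ER stress protein, was the only gene of the list printed as 10 spots, and it shows the precision within an array. Its scaled log2 signal was 2.46 ± 0.06 with vehicle (SD between spots, 10 spots, from 2.35 to 2.54) and 2.49 ± 0.02 with IR-61 (10 spots, from 2.45 to 2.52). The 2 sets of spots overlapped, and the difference of 0.03 was smaller than the SD between the vehicle spots. Unscaled, the signals did not overlap, with 6439 to 7337 against 9683 to 10187.

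The sensors and *Xbp1* gave a median of 0.06 and 1 gene past 1.5-fold. *Eif2ak3*, the gene of PERK, read 2172 with vehicle and 4598 with IR-61, a difference of 0.59 that equals 1.51-fold. This lay at the limit, at rank 1599 of 16888 from the highest. With scaling by the median, by the 75th percentile over detected probes, by quantiles or by loess, and in the deposited log2 values, *Eif2ak3* stayed under 1.5-fold, at 0.51 to 0.56. It was past 1.5-fold with normexp, at 0.64, and with the mean over detected probes, at 0.59. *Ern1*, the gene of IRE1α, read 187 and 241, a difference of −0.12, and *Atf6* read 237 and 278, a difference of −0.26. After scaling only *Eif2ak3* of the 3 sensors was above 0, and *Ern1* was within 1 SD of the software error. Unscaled, all 3 were higher with IR-61, by 0.37 for *Ern1*, 0.23 for *Atf6* and 1.08 for *Eif2ak3* on the log2 scale, so the split rests on the scaling. *Xbp1* read 49946 and 83375, a difference of 0.25, and which splice form the probe detects was not determined here.

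The genes of ER-associated degradation had the widest spread of all the role groups, with an SD of 0.60 among the 8 and both extremes of the list. *Edem2*, which starts the mannose trimming that marks a misfolded glycoprotein for disposal, read 713 with vehicle and 470 with IR-61. Its signal was thus lower on the IR-61 array even before scaling, and after it the difference was −1.09, or 2.13-fold lower, which is rank 182 of 16888 from the lowest and 5.32 times the software SD. *Herpud1*, a membrane protein of the HRD1 complex and a well-known target of the response, read 12238 and 10436, a difference of −0.72 or 1.65-fold lower, 3.52 times the software SD. These were the only 2 of the 34 with a lower unscaled signal on the IR-61 array. *Edem1*, a relative of *Edem2*, read 8558 and 10879, a difference of −0.14.

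*Syvn1*, the ubiquitin ligase HRD1 at the centre of this pathway, read 11304 with vehicle and 16109 with IR-61, a difference of 0.02. *Sel1l*, its partner, read 323 and 461, also a difference of 0.02. *Herpud1*, at −0.72, belongs to the same complex. The derlins, which help to thread clients back across the membrane, differed among themselves. *Derl1* read 12817 and 21233, a difference of 0.24, and *Derl2* read 26536 and 35316, a difference of −0.08. *Derl3* was the highest of the list at 0.92, or 1.89-fold, but from signals of only 21.6 and 57.3. These were close to the lowest signals that count as well above background, 11.4 for the vehicle array and 14.5 for the other. The software SD of its difference was 0.311, and the SD taken from the spread between spots at such signals was 0.507. With normexp background correction the difference was 0.17.

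The translocon genes, of the channel and the associated complex through which new proteins enter the ER, had a median of 0.11, next to the 0.10 of all genes. *Sec61a1*, the pore, read 45864 with vehicle and 58346 with IR-61, a difference of −0.14, and *Sec61b*, a small subunit, read 60369 and 93615, a difference of 0.14. *Ssr1* and *Ssr3*, subunits of the translocon-associated protein complex, had differences of 0.07 and 0.25. None of the 4 passed 1.5-fold.

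Set by promoter, the 10 genes with an exact ERSE had a median difference of 0.03 and ranged from −0.46 (*Ero1lb*) to 0.92 (*Derl3*). The 19 genes with a window and no exact ERSE had a median of −0.08 and ranged from −1.09 (*Edem2*) to 0.59 (*Eif2ak3*). Near matches were not searched, so these 19 may hold elements that differ from the pattern by a letter. The ranges overlapped over most of their length. The ERSE-II genes, both among the 19 without an exact ERSE, were *Herpud1* at −0.72 and *Dnajb11* at −0.03.

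Several probes were present for 9 genes of the list, 20 in all, of which 19 were well above background on both arrays, and these did not always give the same answer. *Derl2* was read by 3 probes. The brightest gave −0.08, the next (4181 with vehicle and 3561 with IR-61) gave −0.72, and the dimmest (1123 and 2370) gave 0.59. The direction of *Derl2* thus depends on the probe. *Ssr1* was likewise at 0.07 by its brightest probe, −0.01 by the next (2793 and 3880) and 0.80 by the dimmest (439 and 1069). For *Ssr3*, *Pdia6*, *Sec61b* and *Derl1* the brightest probe was above 0 and the other below, at 0.25 and −0.30, 0.14 and −0.26, 0.14 and −0.11, and 0.24 and −0.07. *Dnajb9* and *Dnajc10* kept their side, at 0.22 and 0.03 and at −0.05 and −0.28, and the dimmer probe of *Dnajb11* was not well above background on either array. The brightest probe gave a higher value than the second brightest in 8 of these 8 genes and in 65.6% of the 4160 genes of the array with such a pair. The 4 genes past 1.5-fold had 1 probe each, so no second probe bears on them.

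**Figure D4:**
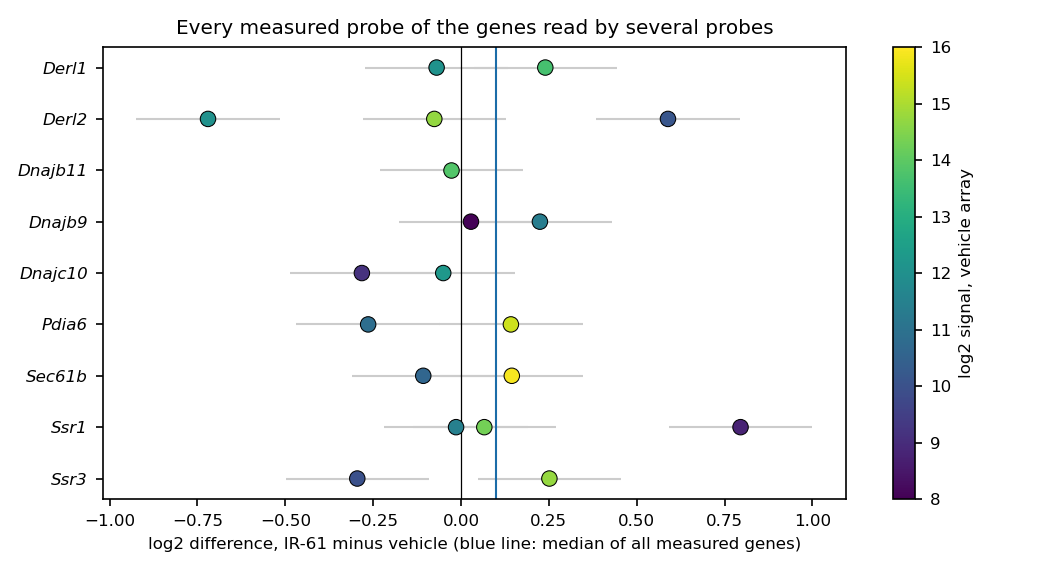
Log2 difference (IR-61 minus vehicle, after scaling) of each measured probe of the 9 genes with several probes, coloured by its log2 signal on the vehicle array, with bars of 1 SD of the software error. The probes of *Derl2* run from −0.72 to 0.59 and those of *Ssr1* from −0.01 to 0.80, and in each row the brightest point is the value used for the gene.

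The wider machinery of the ER, 74 other genes all measured on both arrays, gave a median difference of 0.01 and ranged from −1.49 to 1.04. Lower by 1.5-fold or more were 6 of the 74, against 5.68% of all genes, and higher were 2, against 9.79%. At 2-fold 2 were lower and 1 was higher, against 1.39% and 1.99%. The lowest was *Ddit3*, the gene of CHOP, a transcription factor of the PERK arm that promotes cell death, which read 2701 with vehicle and 1347 with IR-61, a difference of −1.49 or 2.81-fold lower. *Eif2ak3*, at the top of that arm, lay on the other side of 0. Of other genes of the arm, *Atf4* was at −0.48 by its brightest probe and at −1.16 by its second. Unscaled, these probes were at 0.01 and −0.67. *Ppp1r15a* was at 0.50 and *Ppp1r15b* at −0.34, the latter at 0.15 unscaled. The activity of the arm was not measured. *Sec63*, which recruits BiP to the translocon, was at −1.03 by 1 probe and at −0.10 by its second. *Txndc5*, a member of the disulfide isomerase family, read 1801 and 1407, a difference of −0.84. At the other end, *Erlec1*, a lectin of ER-associated degradation, read 170 and 488, a difference of 1.04 or 2.05-fold. *Edem3*, a relative of *Edem2*, read 3037 and 6463, a difference of 0.60. After scaling the EDEM family had 1 gene lower by 2-fold, 1 near 0 and 1 higher by 1.52-fold. *Fkbp14*, a prolyl isomerase, was at 0.57 by 1 probe and at −0.06 by its second.

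**Figure D5:**
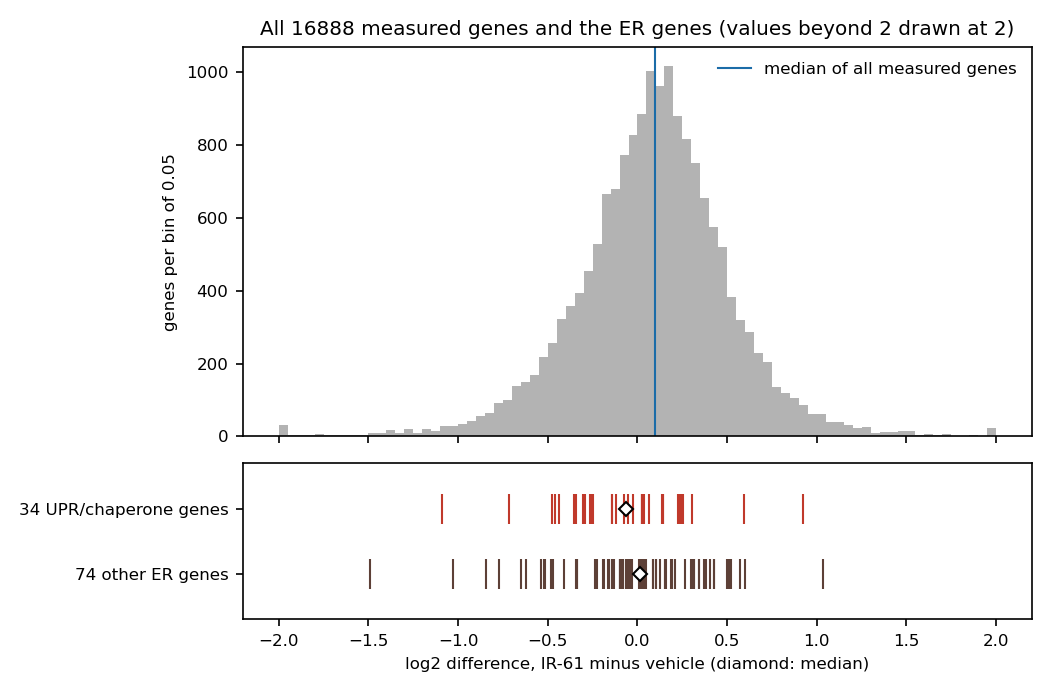
Histogram of the log2 difference (IR-61 minus vehicle, after scaling) of the 16888 genes measured on both arrays, in bins of 0.05 with values beyond 2 drawn at 2, above strips with 1 tick per gene for the 34 genes and for the 74 other ER genes. The diamonds, at −0.06 and 0.01, mark their medians, and the vertical line at 0.10 marks that of all genes.

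By role, counts above and below 0 are to be read against the 61.2% of all genes above 0. They were taken after scaling, and without it the median of the other ER genes was 0.50. The other ER folding factors had the highest median, 0.19, with 10 of 13 above 0. The other disulfide isomerases had a median of 0.15 with 6 of 8 above 0, and those of the list had −0.35 and 1 of 6. The other translocon and signal peptidase genes had a median of −0.12 with 9 of 12 below 0, and those of the oligosaccharyl transferase and glycan trimming a median of −0.09 with 10 of 13 below 0. The other genes of ER-associated degradation had a median of 0.09 with 10 of 13 above 0, and those of the list −0.03 with 4 of 8. The other transducers of the response had a median of −0.04 with 6 of 12 above 0 and held 3 of the 6 genes lower by 1.5-fold, and the 3 KDEL receptors, which return chaperones to the ER, had a median of −0.16. None of these differences between groups was tested.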

How the data were processed

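RNA of 1 vehicle-treated and 1 IR-61-treated culture of RAW264.7 cells was labelled with Cy3 and hybridized to 1 Agilent mouse array each. The authors deposited the intensity of each spot, background-subtracted and detrended by Agilent Feature Extraction, together with the software's error of the spot and its flags (outlier, saturated, well above background). The software version is 11.0.1.1 in the file headers and 11.0.0.1 in the submitters' processing notes. The deposited log2 table gives 1 value per probe and array. Its columns share quartiles of 4.59 and 10.66 and a median of 7.15, as quantile normalization gives, and follow the log2 intensities with r across probes of 0.9995 (vehicle) and 0.9988 (IR-61). How it was made is not given in the sources used here.

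Control spots and outlier spots (124 with vehicle, 139 with IR-61) were dropped. There were 0 saturated spots. Log2 intensities were averaged over the spots of a probe and reduced by the 75th percentile of the array. Of 39419 probes 27224 were named by RefSeq accession through a gene table of GRCm38.p6, used for names because the array design states mm9, and *Ero1l* and *Ero1lb* were matched through their newer symbols. The brightest unsaturated probe stood for the gene. Of 20655 genes, 16888 were measured on both arrays. The macrophage marker *Cd68* had no named probe.

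No test was run, since each condition had 1 array, and this number limits the precision throughout. Spot SDs came from probes printed 10 times, of which those well above background were used, 332 for vehicle and 343 for IR-61. At a log2 signal of 10 or more they were 0.070 (vehicle) and 0.063 (IR-61), between 6 and 10 they were 0.180 and 0.146, and below 6 they were 0.373 and 0.343. The limits of 1.5-fold and 2-fold were set beside the share of all measured genes past them. Every gene of the list is named, and of the 74 other ER genes the 3 lowest, the 3 highest and those past 2-fold. *Atf4*, *Ppp1r15a*, *Ppp1r15b* and *Krtcap2*, also of the 74, were named besides, after their values were seen. The genes and lists were chosen with earlier results of these data known. Steps were tested on simulated arrays with noise between spots only. The changes put in were all larger than the 1.5-fold and 2-fold limits, so calls near these limits were not tested. Alternatives were other scalings, the deposited log2 values, normexp (offset 50) on the median signal, the mean over detected probes, outlier spots kept, the filter on dim probes and a trend over rows and columns removed. For normexp, 4 IR-61 spots with a background above their signal were given the array's median background, a choice made after seeing the data. The tools were R 4.3.3 (limma 3.58.1) and Python 3.11.15 (matplotlib 3.10.9, statsmodels 0.14.6, pandas 2.3.3, numpy 2.4.6).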

Additional observations from a re-analysis of the deposited data

How the results depend on the processing

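The list's median stayed below 0 under every scaled setting, at −0.15 to −0.05, and *Edem2* stayed lower by 2-fold and *Herpud1* by 1.5-fold in all of these. The count higher by 1.5-fold went from 2 to 1 with scaling by the median or by the 75th percentile over detected probes, with quantile normalization, loess, the deposited log2 values and normexp. The gene that fell under the limit was *Derl3* with normexp and *Eif2ak3* with the others. Of 440 gene values under 11 settings, 379 moved by less than the spread between spots and 61 by more, 39 of them without scaling. Of the genes past 1.5-fold in the main setting, 0 changed sign. Genes nearer 0 did so even among the scaled settings, such as *Hspa5* (−0.04 to 0.10) and *Derl2* (−0.17 to 0.18).

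Without scaling the median was 0.59 for all genes, 0.43 for the list and 0.50 for the other ER genes. By role it was 0.45 for the lumenal chaperones, 0.52 for the lectins, 0.14 for the disulfide isomerases and oxidases, 0.37 for the secreted proteins, 0.55 for the sensors and *Xbp1*, 0.46 for ER-associated degradation and 0.59 for the translocon. In the list 1 gene was then lower by 1.5-fold and 10 were higher, and at 2-fold 0 were lower and 2 higher, with *Edem2* at −0.60 and *Herpud1* at −0.23. Under that setting 1.14% of all genes were lower and 50.5% higher by 1.5-fold, and 0.426% lower and 12.8% higher by 2-fold. Of the other ER genes 1 was lower and 30 were higher by 1.5-fold, and 1 was lower and 4 were higher by 2-fold.

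With normexp the median was −0.0316 for all genes and 0.16 for the lectins. Less the median of all genes, it was −0.0212 for the list, −0.0338 for the lumenal chaperones, 0.19 for the lectins, −0.11 for the secreted proteins, 0.14 for the sensors and *Xbp1*, 0.0498 for ER-associated degradation, 0.21 for the translocon and 0.0334 for the other ER genes. With the mean over detected probes the translocon median was −0.00165. Of the other ER genes, 1 was higher by 1.5-fold with loess or with scaling by the median or by the 75th percentile over detected probes. Higher by 2-fold were 0 with scaling by the median or normexp, and lower by 2-fold was 1 with quantile normalization, the deposited log2 values, normexp or the mean over detected probes. The cause of these moves was not tested. Signal over background limits *Derl3* and *Hyou1* most, and 1 array per condition limits every value. No paired analysis was possible because there was a single culture per condition.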

Other observations

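Beyond the 34 genes, an exact ERSE was found in the promoter windows of 27 more genes, and 12 of these were measured on both arrays. Their median difference was −0.03, with 7 of 12 below 0, and they ranged from −0.32 for *Alg12*, a mannosyltransferase that builds the glycan precursor in the ER, to 0.36 for *Pan2*, a subunit of a deadenylase. None of the 12 was lower or higher by 1.5-fold. ERSE-II was found in 10 more genes, of which 6 were measured on both arrays. Their median was −0.16, with 3 of 6 below 0, and they ranged from −0.75 for *Rcl1* to 0.71 for *Lrif1*. Among them were *Krtcap2*, a subunit of the oligosaccharyl transferase, at −0.52 and *Nucb1*, a calcium-binding protein, at −0.40. The 6 genes named here, *Krtcap2* of the 74 other ER genes included, were chosen after their values were seen.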
